A study of Mus musculus with 9 samples.

Results

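B cell and plasma cell genes were examined in splenic Gr-1+ cells, which are mostly neutrophils, of transplanted mice. The set was 9 genes: Cd79a, Cd79b, Ms4a1, Pax5, Cd22, Blk, Mzb1, Sdc1 and Pou2af1. Every probe whose platform gene symbol is one of them was taken, 15 of 45281 probes on the array, and these cover 8 of the 9 genes. No probe carries the symbol Cd79a, so that gene was not analysed here. Of the 8 genes, 6 had a probe above the background limit on at least 3 of the 9 arrays and were tested: Cd79b, Cd22, Blk, Mzb1, Sdc1 and Pou2af1.

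The cells were taken on day 7 after bone marrow transplantation with magnetic beads for Gr-1 (Ly6G), and RNA was used where purity exceeded 97%, per the labels' protocols. Each of 3 groups had 3 arrays. The syngeneic group had C57BL/6 (B6) hosts without graft-versus-host disease, and the WT group had C57BL/6 (B6) hosts of an allogeneic transplant. The KO group had allogeneic hosts of the strain B6.129-Ido1tm1Alm/J (IDO KO), whose own cells lack the enzyme indoleamine 2,3-dioxygenase (IDO1). The sources used here give neither the donor strain nor the age of the mice, nor whether donor or host cells were purified. The labels do not say whether a group's arrays stand for different mice, so the p-values reflect array-to-array spread that could be technical. The study set out to find pathways that IDO1 regulates in myeloid cells, and the question here is how much B lineage transcript these preparations held and whether it differed between hosts.

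B cells recognise antigen with a membrane immunoglobulin that signals through the paired chains CD79A and CD79B. The kinase BLK acts next to this receptor, the lectin CD22 dampens it, and MS4A1 (CD20) is a surface protein of mature B cells. PAX5 is the transcription factor that commits cells to the B lineage, and POU2AF1 (OCA-B) is a coactivator that binds octamer factors at immunoglobulin promoters. MZB1, a chaperone of the endoplasmic reticulum, and syndecan-1 (SDC1, CD138) mark antibody-secreting plasma cells. Several of these genes, among them Blk and Mzb1, are also transcribed in plasmacytoid dendritic cells, so a marker list of that cell type was measured beside them. In purified bulk cells, fewer cells of a type and less RNA per cell cannot be told apart.

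WT replicate 2 stood apart from all other arrays and is shown separately. Its log2 values correlated with WT replicates 1 and 3 at a mean r of 0.919 over genes, against 0.998 among syngeneic and 0.993 to 0.995 among KO arrays. All 15 tested neutrophil markers were lower on it than on WT replicates 1 and 3, with a median difference of -2.72 on the log2 scale, while all 11 T cell markers were higher by a median of 3.87 and all 8 erythroid markers by 3.76. Of the defining markers, Ly6g and Ighm have no probe with that symbol. All KO arrays were run on a chip of their own, apart from the other 6 arrays, and an effect of the chip cannot be told apart from that of genotype. Ido1, the deleted gene, had signals of 24.6, 33.8 and 20.0 on the WT arrays and of -2.3, 0.6 and -8.1 on the KO arrays, and was at least 1.14-fold lower in KO vs WT, where no KO array was above background (limma, adjusted p = 0.032, lost in 11 of 20 alternatives). Whether its probe lies in the deleted part is not known here.

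The promoters of Cd22 and Pou2af1, at 250 bases before to 50 after a start site, are printed here because, of the 3 tested members with an entry in the RefSeq promoter table (GRCm38.p6), Cd22 and Pou2af1 are those with a call in some comparison below, and Sdc1 has none. That table held 5 of the 9 members. The Cd22 window lies wholly inside the annotated gene (chr7:30865404-30880342), so its start site is downstream of the gene's outermost 5' end. Capitals mark a match to the EBF1-type palindrome (TCCC and GGGA with any 2 bases between them) in Cd22, chr7:30878979-30879278, minus strand, and to the PU.1-type letters GAGGAA in Pou2af1, chr9:51213440-51213739, plus strand.
Cd22: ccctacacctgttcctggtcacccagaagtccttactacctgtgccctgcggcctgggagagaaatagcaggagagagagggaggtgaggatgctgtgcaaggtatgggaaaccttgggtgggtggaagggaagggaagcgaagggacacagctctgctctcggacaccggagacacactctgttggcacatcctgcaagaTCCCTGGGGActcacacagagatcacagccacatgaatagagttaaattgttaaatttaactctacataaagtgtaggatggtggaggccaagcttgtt
Pou2af1: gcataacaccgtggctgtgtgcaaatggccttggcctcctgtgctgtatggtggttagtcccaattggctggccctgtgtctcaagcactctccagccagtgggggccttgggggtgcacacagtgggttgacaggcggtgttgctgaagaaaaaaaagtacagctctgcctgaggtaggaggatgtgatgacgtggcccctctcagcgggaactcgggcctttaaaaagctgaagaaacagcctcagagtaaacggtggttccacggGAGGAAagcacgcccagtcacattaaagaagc
Both strands were searched. The EBF1-type letters, which read the same on both strands, occur in 0.904% of the 32851 promoter windows of the table and the PU.1-type letters in 28.3%. The octamer ATTTGCAT, at which POU2AF1 acts with its partner factors, occurs in 1.74% of them and was not in these windows of Cd22, Pou2af1, Cd79a, Pax5 or Sdc1. A match describes letters only.

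Cd79b, the signalling chain of the B cell receptor, was clearly above background on all 9 arrays. Its brightest probe (NM_008339) had signals of 990.7, 911.2 and 1021.5 on the syngeneic arrays, 663.6, 554.8 and 696.2 on the KO arrays, and 380.5 and 376.1 on WT replicates 1 and 3. WT replicate 2 had 1513.7, which is 4 times the mean of the other two WT arrays and the highest of the 9. Apart from that array the groups did not overlap: syngeneic lay highest, KO between, and WT lowest. The second Cd79b probe gave the same order of group levels, with 414.2 to 509.6 in syngeneic, 287.5 to 392.1 in KO, 195.4 and 209.6 on WT replicates 1 and 3, and 616.8 on WT replicate 2.

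Blk, a Src-family kinase of B cells, was dim. Its brightest probe read 32.6, 42.5 and 56.7 on the syngeneic arrays and 3.2, 7.1 and 19.2 on the KO arrays, against a background limit of 14.3. WT replicates 1 and 3 read -2.9 and -2.8, while WT replicate 2 read 97.6, at least 6.83 times those arrays, taken at the limit. All 3 syngeneic arrays thus lay above the limit, 1 of 3 KO arrays did, and among WT arrays only replicate 2 did. The second passing Blk probe split the arrays in the same way, with 32.2 to 41.1 in syngeneic, 7.1 to 20.7 in KO, -12.6 and -5.4 on WT replicates 1 and 3 and 114.3 on WT replicate 2. One more Blk probe was above the limit on 0 of 9 arrays, from -4.6 to 7.5.

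Cd22, the inhibitory co-receptor, was dim as well. Its brightest probe (NM_009845) read 24.2, 25.3 and 31.2 in syngeneic, 13.6, 35.6 and 34.1 in KO, -5.9 and 1.8 on WT replicates 1 and 3, and 75 on WT replicate 2. Here syngeneic and KO overlapped, and only WT replicates 1 and 3 stood below both. A second probe (NM_001043317) passed on 4 arrays with a wide spread, from 10.2 to 44.6 within syngeneic and 2.9 to 27.6 within KO, with -6.6 and -0.8 on WT replicates 1 and 3 and 47.9 on WT replicate 2. The last Cd22 probe stayed between -0.5 and 11.2 and was above the limit on 0 arrays.

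The genes most specific for the B lineage gave no usable signal. Ms4a1 lay between -6.3 and 2.1 on 8 arrays and at 16.5 on WT replicate 2, just above the limit of 14.3. Pax5 lay between -4.4 and 9.8, above the limit on 0 of 9 arrays, with 9.8, 7.0 and -1.0 in WT. Neither gene was tested. A signal at background does not show that the transcript is absent, since each gene was read by 1 probe.

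Pou2af1, the octamer coactivator of B and plasma cells, was read by 1 probe and was above background everywhere. Its signals were 967.3, 967.0 and 987.8 in syngeneic, 1263.8, 1320.9 and 1151.3 in KO, 510.7 and 601.1 on WT replicates 1 and 3, and 2221.4 on WT replicate 2. Unlike Cd79b and Blk, it was higher on every KO array than on every syngeneic array.

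Mzb1, the endoplasmic reticulum chaperone, also had 1 probe. Its signals were 4265.5, 4330.6 and 3870.3 in syngeneic, 3156.6, 2900.0 and 2999.9 in KO, 1850.4 and 1643.9 on WT replicates 1 and 3, and 8138.1 on WT replicate 2. WT replicate 2 was 4.66 times the mean of the other two WT arrays, and the order of groups was that of Cd79b. Sdc1, the classical surface marker of plasma cells, stayed near background. Its brightest probe was above the limit on 1 array of each group (22.2 in syngeneic, 16.9 on WT replicate 2 and 26.7 in KO), and 2 other Sdc1 probes exceeded it on 2 and 0 arrays.

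**Figure D1:**
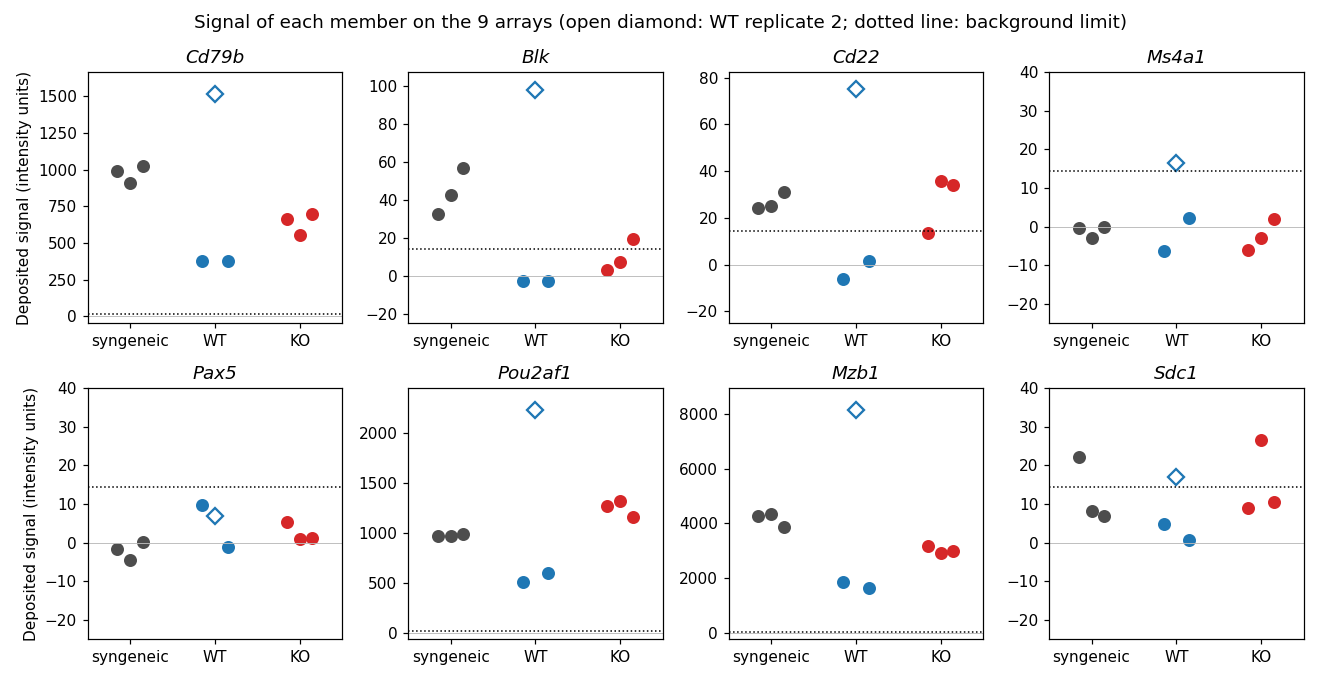
Deposited signal (y axis, intensity units) of the brightest probe of each of the 8 members on the array, by group (x axis). Each point is 1 array, the open diamond is WT replicate 2 and the dotted line is the background limit of 14.3. WT replicates 1 and 3 lie lowest and WT replicate 2 highest for Cd79b, Blk, Cd22, Pou2af1 and Mzb1, while Pax5 stays below the limit on all arrays and Ms4a1 on all but WT replicate 2.

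WT replicates 1 and 3 were the 2 lowest of the 9 arrays for 6 of the 6 tested members, an order that 6.47% of the 10874 genes tested showed. WT replicate 2 was the highest array for 5 of the 6, Sdc1 being the exception, against 32.2% of all genes. Both held together for Cd79b, Cd22, Blk, Mzb1 and Pou2af1, against 3.63% of all genes. The members were chosen with results of these arrays known, so these counts are a description. Sdc1 passed the filter with exactly 3 arrays above the limit, 1 of each group and WT replicate 2 among them. Its 6 lowest signals, from 0.7 to 10.5, all lie at background, so its rank carries no weight. For Blk and Cd22, WT replicates 1 and 3 lay below the limit together with some KO arrays (3.2 and 7.1 for Blk, 13.6 for Cd22). Against those KO arrays their low rank is an order among background values. Only Cd79b, Mzb1 and Pou2af1 showed the low rank above background. Where a gene had 2 passing probes, both placed WT replicates 1 and 3 lowest and WT replicate 2 highest, as the plot of probe pairs shows.

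**Figure D2:**
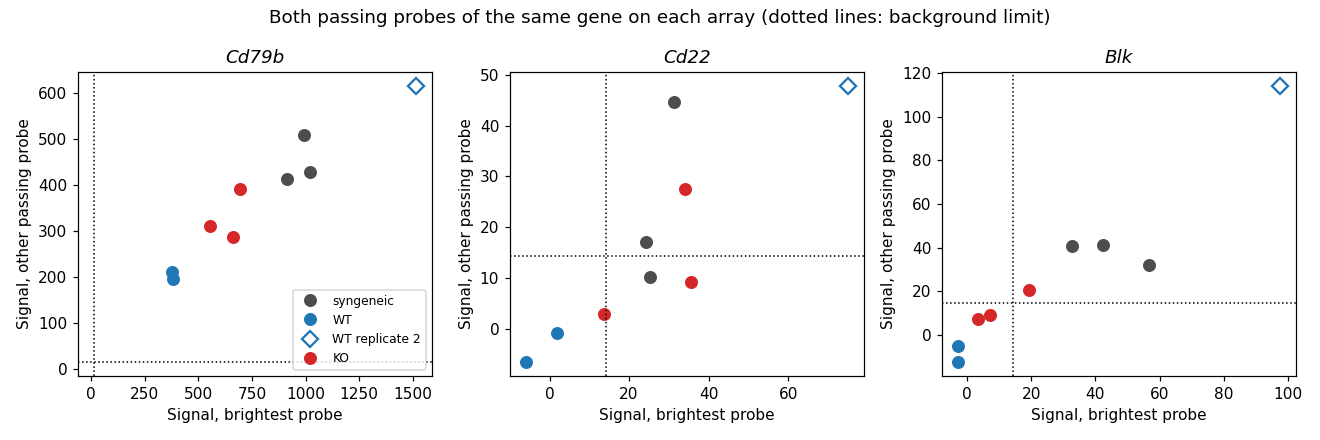
Signal of the brightest probe (x axis) against the other passing probe (y axis) of Cd79b, Cd22 and Blk, in intensity units. Each point is 1 array and the dotted lines mark the background limit of 14.3. In each panel WT replicate 2 (open diamond) is at the upper right and WT replicates 1 and 3 at the lower left.

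WT vs syngeneic compared allogeneic with syngeneic hosts on the same chip. With all arrays, 0 of the 6 tested members passed limma's test, 0 had an unadjusted p under 0.05, and 10.4% of all genes passed. The members' median log2 fold change was -0.24, against 0.04 over all genes. Cd79b stood at -0.62, SE 0.44 (limma, n = 3 arrays per group, adjusted p = 0.395), and Mzb1 at -0.49, SE 0.51 (limma, adjusted p = 0.569). With WT replicate 2 left out, 5 of the 6 members were lower in WT cells, where 14.9% of all genes were lower, and the median was -0.77. Cd79b then fell by 1.23, SE 0.10 (limma, n = 2 WT and 3 syngeneic arrays, adjusted p = 1.91e-06), which is 0.428 times the syngeneic level, and Mzb1 by 1.22, SE 0.09 (limma, adjusted p = 7.4e-07), or 0.429 times. Pou2af1 fell by 0.75 (limma, adjusted p = 7.15e-05). Blk, not above background on WT replicates 1 and 3, was at least 1.36-fold lower (limma, adjusted p = 0.000235), and Cd22 at least 1.15-fold lower (limma, adjusted p = 0.00371). These bounds and all fold changes are on a scale that adds an offset of 50 to each intensity, and for dim genes they come out too small. Sdc1 did not pass (log2 fold change -0.18, limma adjusted p = 0.26).

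KO vs WT asked whether these genes depend on host IDO1. With all arrays, 0 of 6 members passed limma's test, 0 had an unadjusted p under 0.05, and 2.00% of all genes passed. Log2 fold changes ran from -0.20 for Blk to 0.45 for Pou2af1, with a 95% interval for Pou2af1 from -0.58 to 1.48 and for Mzb1 from -1.14 to 1.22, so the Mzb1 interval reached past 1 in both directions. With WT replicate 2 left out, 4 members were higher in KO cells, where 10.2% of all genes were higher. Pou2af1 rose by 1.08, SE 0.09 (limma, n = 3 KO and 2 WT arrays, adjusted p = 2.01e-05), a 2.11-fold difference. Mzb1 rose by 0.77, SE 0.09 (limma, adjusted p = 0.000164), and Cd79b by 0.66, SE 0.10 (limma, adjusted p = 0.000946). Cd22 was at least 1.16-fold higher (limma, adjusted p = 0.00619). The other passing Cd22 probe did not pass (limma, adjusted p = 0.158). Blk did not pass by its brightest probe (limma, adjusted p = 0.129), while its other passing probe did (log2 fold change 0.45, limma adjusted p = 0.00783). No fold could be bounded for either Blk probe, since WT replicates 1 and 3 and 2 of 3 KO arrays were at background. The members' median was 0.60 without WT replicate 2 and 0.10 with it. The call for 4 members thus rests on leaving out 1 array of 3, and the WT group then had 2 arrays.

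KO vs syngeneic does not use the WT arrays for its means. The groups differ in transplant type, host genotype and chip, and these effects cannot be told apart in it. On all 9 arrays 0 of 6 members passed limma's test and 0 had an unadjusted p under 0.05, with 11.9% of all genes passing. That fit shares 1 estimate of the spread per gene, to which WT replicate 2 contributes. Fitted on the 6 KO and syngeneic arrays alone, 4 of 6 passed, where 36.8% of all genes passed (17.8% higher and 18.9% lower). Cd79b fell by 0.57 (limma, n = 3 arrays per group, adjusted p = 0.000971) and Mzb1 by 0.45 (limma, adjusted p = 0.00135). Blk was lower too (limma, adjusted p = 0.00302), with 1 of 3 KO arrays above the background limit, so its log2 difference of -0.53 is measured against signals mostly at background. Pou2af1 rose by 0.33 (limma, adjusted p = 0.00741). The arrays of both groups did not overlap for these 4 genes, as for 24.5% of all genes in the lower and 24.9% in the higher direction. Cd22 (0.01) and Sdc1 (0.05) did not pass. The comparisons share arrays with each other, so their values stand side by side and are not independent.

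**Figure D3:**
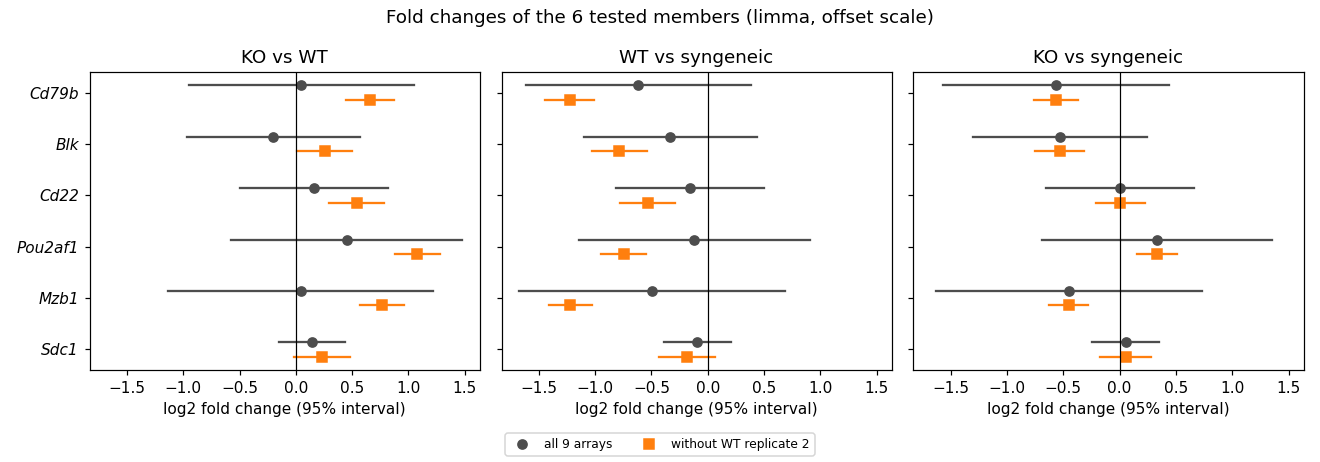
Log2 fold change (x axis) with 95% interval of the 6 tested members (y axis) in 3 comparisons, with all 9 arrays (grey circles) and without WT replicate 2 (orange squares). With all arrays every interval crosses 0. Without WT replicate 2 the 5 members other than Sdc1 lie below 0 in WT vs syngeneic.

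Other genes of the B cell surface and of receptor signalling went in both directions. Of 16 tested, 2 were lower in WT vs syngeneic with all arrays, where 5.64% of all genes were lower: Fcrl1, an Fc receptor-like protein of B cells, by 0.77 (limma, adjusted p = 0.00266) and Blnk, the adaptor that links the receptor to its downstream enzymes, by 1.16 (limma, adjusted p = 0.0186). Both were lower in KO vs syngeneic too, where 6.85% of all genes were lower, Fcrl1 by 0.70 (limma, adjusted p = 0.00361) and Blnk by 0.88 (limma, adjusted p = 0.0469). The Blnk calls were lost in 6 of 20 alternatives in WT and 13 of 20 in KO. Fcrl1 did not have the order of Cd79b. It read 161.6 to 190 in syngeneic, 76.6 to 89.7 in KO and 81.6 and 89.6 on WT replicates 1 and 3. WT replicate 2, at 58, was its lowest array. Without WT replicate 2, 7 of 16 were lower and 2 higher in WT vs syngeneic, where 14.6% of all genes were higher, and 6 were higher and 1 lower in KO vs WT, where 9.78% were lower. Fcrla, another Fc receptor-like protein of B cells, stood at -0.77 in WT vs syngeneic with all arrays (limma, adjusted p = 0.148) and fell by 1.18 without WT replicate 2 (limma, adjusted p = 1.4e-06). Fcmr, the receptor for IgM, read 208.9 to 236.9 in syngeneic, 43.3 to 58.2 in KO, 3.2 and 3.9 on WT replicates 1 and 3 and 281.4 on WT replicate 2. Fcer2a, the low-affinity IgE receptor of mature B cells, was not tested, with 141.2 on WT replicate 2 and at most 14.2 on the others.

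Among B cell transcription factors, 1 of 8 was lower with all arrays in both comparisons with syngeneic cells, Pou2f2, which is the octamer factor that POU2AF1 partners. It fell by 0.99 in WT (limma, adjusted p = 0.00544) and by 1.28 in KO (limma, adjusted p = 0.00143). WT replicate 2 read 219.0 for Pou2f2, between the 121.7 and 132.5 of the other WT arrays and the 351.8 to 400.6 of syngeneic cells. Pou2af1 and its partner thus had different orders of the groups. Bcl11a, a factor of B cell and plasmacytoid dendritic cell development, read 1170.1 on WT replicate 2 against 271.8 and 337.9 on the other WT arrays and 142.5 to 183.5 in KO. Ebf1, an early B lineage factor, read 15.8 to 36.4 on all arrays and did not pass in any of the comparisons with all arrays.

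Immunoglobulin transcripts could hardly be read by gene symbol, since 2 of the 28 listed symbols have a probe on this array. The 10378 probes without a symbol were not searched. Ighg1, the constant region of IgG1, read 207.1 on WT replicate 2 and 5.3 to 34.5 on the other 8 arrays. Jchain, which joins immunoglobulin chains, read -7.4 to 7.5, above the limit on 0 arrays.

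The plasma cell programme did not follow Mzb1 as a list. Of 17 genes tested, 4 were higher and 1 lower in WT vs syngeneic with all arrays, and 5 were higher and 1 lower in KO vs syngeneic, where 4.80% and 5.09% of all genes were higher. Pdia6, a protein disulphide isomerase, rose by 0.66 (limma, adjusted p = 0.00543) in WT and 0.89 (limma, adjusted p = 0.00107) in KO, and Sdf2l1, another protein of the endoplasmic reticulum, by 0.97 (limma, adjusted p = 0.00145) and 0.62 (limma, adjusted p = 0.0114). Pdia4 and Creld2 rose in both as well. The Pdia4 call in WT was lost in 6 of 20 alternatives, that of Creld2 in KO in 4 and that of Sdf2l1 in KO in 2. Other endoplasmic reticulum genes of the list did not pass in either, among them the chaperone Hsp90b1 (0.08 in WT, limma adjusted p = 0.813) and Txndc5 (0.24 in WT, limma adjusted p = 0.227). The gene that fell in both was Tnfrsf17 (BCMA), the survival receptor of plasma cells, named after its values were seen, by 0.80 in WT (limma, adjusted p = 0.0104) and 0.59 in KO (limma, adjusted p = 0.0332, lost in 7 of 20 alternatives). Xbp1, which drives secretion, read 8562.9 on WT replicate 2 against 11257 and 11825.6 on the other WT arrays, where Mzb1 was highest on WT replicate 2, and 14630.7 to 17854.6 in KO, higher than in syngeneic by 0.50 (limma, adjusted p = 0.0494), a call lost in 12 of 20 alternatives. Irf4, needed for plasma cell formation, read 244.4 to 316.0 in syngeneic, 219.4 to 238.1 in KO, 82.2 and 90.8 on WT replicates 1 and 3 and 448.9 on WT replicate 2, with the groups ordered as for Mzb1. Prdm1, the plasma cell repressor, was above the limit on WT replicate 2 alone (17.4).

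Markers of other cell types also differed between arrays, not all in the members' order. The 6 tested plasmacytoid dendritic cell markers had a summed signal of 4329 to 4439 in syngeneic, 1507 to 2013 in KO, 1225 and 1232 on WT replicates 1 and 3 and 5305 on WT replicate 2. Siglech, the surface lectin of these cells, read 166.4 to 196.1 in syngeneic, 19.5 to 24.9 in KO, 0.8 and -1.0 on WT replicates 1 and 3 and 215.4 on WT replicate 2, while Ccr9 was above the limit on 0 arrays. In KO vs syngeneic with all arrays 1 of these 6, Tcf4, was lower (-1.34, limma adjusted p = 0.0271, lost in 7 of 20 alternatives), and without WT replicate 2 there were 5, where 20.0% of all genes were lower. Ly6d, also a gene of early B cells, read 1311 to 1442.3 in syngeneic, 263.5 to 416.8 in KO, 114.3 and 141 on WT replicates 1 and 3 and 1509.3 on WT replicate 2. Siglech, Ly6d and Cox6a2 had the group order of Cd79b, while Tcf4 on the KO arrays (398.1 to 510.8) overlapped WT replicates 1 and 3 (483.8 and 504.6) and Lair1 was lowest on WT replicate 2 (185.6). Summed T cell markers read 7605 to 7847 in syngeneic, 9747 to 23440 in KO, 2610 and 2675 on WT replicates 1 and 3 and 55710 on WT replicate 2. Summed erythroid markers read 67710 to 68580, 2325 to 10180, 10530 and 11370, and 75150 in the same order. All 11 T cell markers were higher in KO vs syngeneic without WT replicate 2, where 19.3% of all genes were higher, and 0 with all arrays. Among them Cd3e, a chain of the T cell receptor complex, read 875.4 to 938.6 in syngeneic, 350 and 347 on WT replicates 1 and 3, 9081.9 on WT replicate 2 and 1072.2 to 2787.8 in KO. Alas2, an enzyme of haem synthesis in red cell precursors, was lower than in syngeneic, with a log2 difference of -5.67 in KO (limma, adjusted p = 0.00464, called in 20 of 20 alternatives) and -3.87 in WT (limma, adjusted p = 0.0286, lost in 10 of 20).

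Monocyte and macrophage markers separated the groups with all arrays in their summed signal, but not gene by gene. Their summed signal over 12 genes was 76860 to 78390 in syngeneic, 19350 to 24210 in KO, 10460 and 10400 on WT replicates 1 and 3 and 3819 on WT replicate 2. That is the group order of Cd79b and Mzb1 for syngeneic, KO and WT replicates 1 and 3. WT replicate 2, however, was lowest rather than highest. Not every gene of the list had this order. Ccr2 read 1058 to 1113 in syngeneic, 368.4 to 559.4 in KO, and 1352 and 1397.5 on WT replicates 1 and 3. On WT replicate 2 it read 227.9. Csf1r in KO (379.1 to 506.3) overlapped WT replicates 1 and 3 (395.8 and 409). With all arrays 10 of the 12 were lower in WT vs syngeneic, 9 lower in KO vs syngeneic and 4 higher in KO vs WT, where 1.17% of all genes were higher. Vcam1, an adhesion molecule of splenic macrophages, rose by 1.21 in KO vs WT (limma, adjusted p = 0.034), Mertk, a receptor for apoptotic cells, by 1.57 (limma, adjusted p = 0.0164), and Spic, a factor of red pulp macrophages, by 2.41 (limma, adjusted p = 0.0223). These calls were lost in 10, 5 and 7 of 20 alternatives, in that order. The part of any of these cell types in the members' values was not tested.

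**Figure D4:**
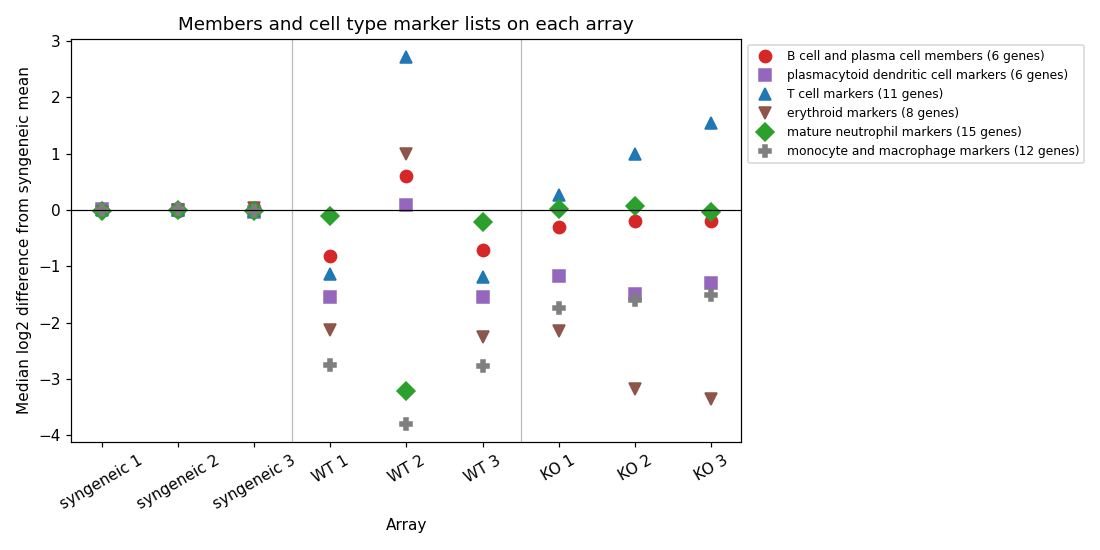
Median log2 difference from the syngeneic mean (y axis) of the tested members and of 5 marker lists on each array (x axis). The members lie at -0.82 and -0.71 on WT replicates 1 and 3, at 0.60 on WT replicate 2 and at -0.30 to -0.19 on the KO arrays, and neutrophil markers at -3.21 on WT replicate 2.

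Genes whose pattern over arrays was most like that of Mzb1 and Cd79b were taken by Pearson's r of log2 values over the 9 arrays, which share WT replicate 2 as 1 extreme point. For Mzb1 they were Gstt1 (r = 0.983), Cbx7, Chd3, Ggact, Pacsin1 and Trim32 (r = 0.973), and 1.28% of genes had an r over 0.9. For Cd79b, taken after the data were seen in place of Cd79a, they were Cox6a2 (0.987), Slc29a1, Ggact, Bcl9l, Gstt1 and Gaa (0.970), and 1.22% of genes had an r over 0.9. Without WT replicate 2, Cox6a2, 1 of the plasmacytoid markers listed, was among the 6 for both genes, at 0.984 for Mzb1 and 0.988 for Cd79b. The others were Mrap, Reln, Ddit4, Dnase1l3 and C2 for Mzb1, and Tent5c, Rab7b, Spic (0.983), Fcrla (0.980) and Cbr3 for Cd79b. Over these arrays 1.94% of genes had an r over 0.9 with Mzb1 and 2.76% with Cd79b. On WT replicate 2 itself Mrap, C2, Spic and Cbr3 read lower than on WT replicates 1 and 3, unlike Mzb1 and Cd79b. The other genes of these 8-array lists read higher there. Mzb1 and Cd79b correlated with each other at 0.974 over 9 arrays and 0.969 over 8, Pou2af1 with Blk at 0.666 and 0.369, and Sdc1 with the other members at 0.289 to 0.616 over 9.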

How the data were processed

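RNA of 9 samples was hybridised to Illumina mouse arrays, with 45281 probes per array. Per the submitters' processing notes GenomeStudio was used; its version and settings are not given there. The deposited signal intensity of each array shares its upper quartile (102.1) and its highest signal (47219) with all others, and 35.6% of signals are at or below 0, so background had been taken off and arrays quantile-normalized by the authors. The log2 values the authors deposited in the series matrix equal log2 of these intensities within 1.09e-06. The 9 detection p-value columns carry no sample name and were not used.

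Intensities went through limma's normexp (offset 50) and quantile normalization, then log2. The background limit of 14.3 is the 95th percentile of signal over 1597 probes of smell, taste and vomeronasal receptors and keratin-associated proteins. Probes above it on at least 3 of 9 arrays were kept, and the brightest stood for each of 10874 genes, named from the platform annotation. limma 3.58.1 (R 4.3.3) fitted 1 mean per group over all 9 arrays, with Benjamini-Hochberg adjustment over all genes and a threshold of 0.05. The number of arrays limits the precision.

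Members and the 13 lists were chosen with earlier results of these data known. The named genes are all members, up to 4 genes of each list with the smallest adjusted p, Ighm, Jchain, Prdm1, Xbp1, Irf4, Cd3e, Ly6g, Alas2 and Ido1 whatever their values (1 further gene is not reported here), and the 6 genes most correlated with Mzb1 and Cd79a. Cd79a has no probe, so Cd79b took its place. Not all genes this rule allows are described. Fcer2a, Ccr9, Tnfrsf17, Hsp90b1, Txndc5, Lair1, Ccr2 and Csf1r fall outside it and were chosen after their values were seen.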

Additional observations from a re-analysis of the deposited data

How the results depend on the processing

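Of the alternatives run, only array weights, the fit on the 6 arrays compared and leaving out WT replicate 2 gave any call for a member. Array weights gave 4 in KO vs WT, 5 in WT vs syngeneic and 4 in KO vs syngeneic, where 27.3%, 40.2% and 42.2% of all genes were called, and the 6-array fit gave 4 in KO vs syngeneic. Leaving out 1 array at a time gave 0 to 4 calls in KO vs WT, 0 to 5 in WT vs syngeneic and 0 to 4 in KO vs syngeneic, the highest each time without WT replicate 2. The replicate block gave 0 calls in each comparison. Same-numbered arrays deviated together with r from -0.167 to 0.111, so no pairing by number was seen. With 3 arrays per group and WT replicate 2 far from the others, this check cannot exclude pairing. Log2 fold changes that turned sign in KO vs WT were, with array weights, Blk (0.2675), Fcrl1 (-1e-04), Fcmr (0.7189), Siglech (0.3895), Ly6d (0.8537) and Tnfsf13b (-0.6744); with a floor of 16, Fcmr (0.3385) and Ly6d (0.1059); with offset 16, Fcmr (0.2) and Ly6d (0.021); with the series matrix values, Fcmr (1.7899), Siglech (0.686) and Ly6d (0.1059). In WT vs syngeneic they were Cd22 with the floor (0.0021) and, with array weights, Bcl11a (-0.1637), Cd3e (-1.1828), Tnfsf13b (0.1971) and Cxcl12 (0.027). In KO vs syngeneic they were Cd22 with the matrix values (-0.0716) and with the mean of its probes (-0.085), and Ido1, at 0 with the floor. Leaving out 1 array, signs turned in KO vs WT for Cd79b (-0.2598 to 0.6581), Cd22 (-0.0697 to 0.5403), Blk (-0.4265 to 0.2556), Mzb1 (-0.363 to 0.768), Fcrla (-0.1632 to 0.4626), Fcrl1 (-0.0295 to 0.1336), Fcmr (-0.3909 to 0.7677), Cd3e (-0.1377 to 2.0958), Siglech (-0.6231 to 0.4286), Ly6d (-0.5915 to 0.9698) and Tnfsf13b (-0.7162 to 1.0056). In WT vs syngeneic they turned for Cd22 (-0.5346 to 0.0754), Pou2af1 (-0.7452 to 0.2482), Bcl11a (-0.1615 to 0.7735), Xbp1 (-0.2249 to 0.0065), Cd3e (-1.2322 to 1.0014), Tnfsf13b (-1.4931 to 0.2286) and Cxcl12 (-0.1939 to 0.0187), and in KO vs syngeneic for Cd22 (-0.0561 to 0.1186) and Sdc1 (-0.044 to 0.1388). The causes were not tested. Over all genes, calls ran from 2 to 2967 in KO vs WT against 217, from 485 to 4370 in WT vs syngeneic against 1135, and from 650 to 4588 in KO vs syngeneic against 1298. The alternative using detection p-values was not run, since those columns name no sample. With the 99th percentile (27.8) as the limit 7 of the 15 member probes passed on at least 3 arrays, against 9. Ms4a1, Pax5 and Sdc1 are limited by signals near background.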

Other observations

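Factors that keep B cells and plasma cells alive were measured beside the members. Cxcl12, the chemokine that holds B cell precursors and plasma cells in their niche, read 137.2 to 145.8 on the KO arrays, 27.3 to 36.9 in syngeneic and 36.9, 10.5 and 27.6 on WT replicates 1 to 3. It rose in KO vs WT by 1.20 (limma, adjusted p = 0.00413), where 1.17% of all genes were higher. In KO vs syngeneic it rose by 1.1 (limma, adjusted p = 0.000619), where 5.09% were higher. Its KO arrays lay above every syngeneic array, as those of 24.9% of all genes did. Flt3l, the FLT3 ligand, read 116 to 127.1 in KO and 53.6 to 63.4 in syngeneic, and was higher by 0.58 (limma, adjusted p = 0.048, lost in 10 of 20 alternatives). It read 78.3, 137.4 and 61.9 on WT replicates 1 to 3, so WT replicate 2 lay above every KO array. Tnfsf13b (BAFF), the main survival factor of mature B cells, read 3357.6 to 3709.5 in syngeneic, 2302.2 to 2678.7 in KO, 4220.7 and 4019.5 on WT replicates 1 and 3 and 327.5 on WT replicate 2. It did not pass in KO vs WT (0.42, limma, adjusted p = 0.806). Without WT replicate 2 its difference was -0.72 (limma, adjusted p = 0.000256), where 9.78% of all genes were lower. KO and chip cannot be told apart for any of these.

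Of the B cell precursor list 3 genes were tested and 0 passed with all arrays. Igll1, part of the surrogate light chain, read 26.2 to 41.5 in syngeneic, 5.3 to 16.3 in KO and 6.7, 26 and 13.9 in WT. Of the germinal centre list 4 genes were tested and 0 passed with all arrays. Of the epithelial and stromal list 3 genes were tested, and with all arrays 1 was lower in WT vs syngeneic and 0 passed in the other comparisons.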
